A study of Mus musculus with 24 samples.

Results

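The genes described here are the amino acid and neurotransmitter transporters of the Slc1, Slc3, Slc6, Slc7 and Slc38 families in mouse dorsal root ganglia. They were chosen by symbol, and a gene was kept when its deposited value was above 0 in at least 4 of 24 libraries, which gave 54 of the 38215 genes in the table. The ganglia, which hold the cell bodies of sensory neurons with their satellite glia and Schwann cells, came from mice of 3 strains labelled CAST, DBA and C57. RNA was sequenced 5 days after a crush of the sciatic nerve, which interrupts the axons of part of these neurons, or in naive ganglia. Each of the 6 groups (CAST injured, DBA injured, C57 injured, CAST naive, DBA naive and C57 naive) held 4 libraries, called biological quadruplicates in the series design, and no transgene or drug is named. The treatment note speaks of sham injury while the sample labels say naive, so whether the uninjured mice were operated on is not settled. The labels name neither age nor sex. The study title names regeneration in CAST mice, and the comparisons asked how crush changed these genes in each strain, whether the change differed between strains, and how naive ganglia of the strains differed.

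Solute carriers of these families move amino acids, amines and related solutes across membranes, mostly coupled to sodium or by exchange. The Slc1 family takes up glutamate or exchanges neutral amino acids, the Slc6 family takes up monoamines, GABA, glycine, taurine, creatine and amino acids with sodium and chloride, and the Slc38 family carries glutamine and other neutral amino acids. Most Slc7 light chains reach the membrane only when bound to a heavy chain of the Slc3 family, whereas the cationic amino acid transporters of Slc7 work without one. Sensory neurons release glutamate, satellite glia take it up, and a neuron that regrows an axon needs amino acids for protein synthesis.

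The authors deposited FPKM, a read number scaled to gene length and library depth. The length matched the genomic span with introns, so a level is compared here only within a gene, and a long gene has a low FPKM even with many reads. Estimated library totals ran from 51.4 to 145.4 (in units of 1e6 reads). Of the 54 genes, 48 reached 10 estimated reads in 4 or more libraries and were tested. The 6 others were Slc38a5, Slc6a14, Slc6a18, Slc6a3, Slc7a12 and Slc7a9, the last of which is the light chain of the heavy chain Slc3a1. Slc6a3, the dopamine transporter, had 0 to 16.0 estimated reads per library, and the other 5 had at most 10.9. Tests were done with limma on log2(FPKM + 1) across 27044 genes with Benjamini-Hochberg adjustment, and a call means an adjusted p below 0.05. The p-values measure the spread between these libraries, and whether each came from 1 animal or a pool is not stated in the labels. A ratio below is the ratio of mean FPKM, which does not carry the shrinkage of low values that log2(FPKM + 1) brings. Of the libraries, 3 stood apart. C57 injured replicate 3 had the lowest depth, C57 naive replicate 1 differed from its group on a principal component, and DBA naive replicate 3 had a summed FPKM of 46.7 over 10 skeletal muscle genes, against 1.36 to 9.45 in the 23 others. Counts without these libraries are given beside the counts they touch.

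Promoter windows were at hand for 38 of the 54 genes, from RefSeq on GRCm38.p6, and the 250 bases before the start of transcription were searched on both strands. The first motif was TGATGNAA, the core of the composite C/EBP-ATF element bound by the stress factor Atf4, and the second was TGANTCA, the site of the AP-1 factors. The motifs do not overlap each other in the windows printed. TGATGNAA was found in 2 of the 38 genes, Slc7a11 and Slc7a7, and in 3.45% of all 32851 windows. TGANTCA was found in 8 of the 38 genes, among them Slc7a1, Slc6a17 and Slc3a1, and in 6.75% of all windows. A gene may have several windows, so a share of genes and a share of windows are not on one footing. The 5 windows below were chosen with the values known, as examples. Slc6a4, Slc1a7 and Slc1a4 were taken for their rise after crush. Slc7a11 and Slc7a1 were taken because they rose and a window of each holds a motif, which capitals mark. Slc6a4 lies at chr11:76998347-76998596 on the plus strand, Slc1a7 at chr4:107968156-107968405 on the plus strand, Slc1a4 at chr11:20332714-20332963 on the minus strand, Slc7a11 at chr3:50443614-50443863 on the minus strand and Slc7a1 at chr5:148399905-148400154 on the minus strand.
Slc6a4: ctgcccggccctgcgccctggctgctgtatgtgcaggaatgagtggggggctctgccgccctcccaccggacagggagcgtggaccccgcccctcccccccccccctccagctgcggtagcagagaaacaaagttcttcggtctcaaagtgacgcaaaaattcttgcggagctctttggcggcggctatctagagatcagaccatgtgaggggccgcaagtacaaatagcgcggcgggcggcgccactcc
Slc1a7: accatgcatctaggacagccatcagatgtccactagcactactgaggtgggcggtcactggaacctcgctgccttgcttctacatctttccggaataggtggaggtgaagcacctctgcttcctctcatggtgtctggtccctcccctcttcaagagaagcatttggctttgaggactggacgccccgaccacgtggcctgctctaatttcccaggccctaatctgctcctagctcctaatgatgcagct
Slc1a4: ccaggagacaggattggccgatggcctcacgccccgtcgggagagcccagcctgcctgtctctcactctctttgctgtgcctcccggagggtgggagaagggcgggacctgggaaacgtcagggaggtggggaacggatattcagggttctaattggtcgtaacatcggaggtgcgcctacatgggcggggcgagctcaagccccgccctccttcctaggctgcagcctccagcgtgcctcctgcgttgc
Slc7a11: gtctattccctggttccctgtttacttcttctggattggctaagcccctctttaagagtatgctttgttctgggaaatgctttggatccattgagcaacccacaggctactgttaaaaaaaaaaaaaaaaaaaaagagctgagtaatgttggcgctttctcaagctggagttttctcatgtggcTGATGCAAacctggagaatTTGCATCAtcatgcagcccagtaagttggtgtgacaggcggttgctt
Slc7a1: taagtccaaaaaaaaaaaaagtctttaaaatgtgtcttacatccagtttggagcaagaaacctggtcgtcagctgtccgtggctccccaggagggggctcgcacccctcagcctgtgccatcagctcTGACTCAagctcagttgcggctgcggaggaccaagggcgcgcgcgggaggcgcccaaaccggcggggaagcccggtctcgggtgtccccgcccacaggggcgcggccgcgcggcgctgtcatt
The Slc7a11 window held TGATGNAA on both strands, at 66 and 47 bases before the start. Slc7a1 had 2 windows, of which the printed window, picked for its motif, held 1 AP-1 site and the other held neither motif. The windows of Slc6a4, Slc1a7 and Slc1a4 held neither motif. A match is a string of letters and not a shown binding site.

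After crush, 21 of the 48 tested transporters rose and 10 fell in CAST, where 47.2% of all genes tested were called (25.6% higher and 21.5% lower). In DBA, 22 rose and 12 fell, beside 50.2% of all genes (26.4% and 23.8%), and in C57, 18 rose and 10 fell, beside 38.6% (18.1% and 20.5%). The 15 genes called higher in every strain were Slc6a4, Slc1a7, Slc1a4, Slc3a2, Slc7a1, Slc7a3, Slc7a5, Slc7a6, Slc7a11, Slc38a1, Slc38a6, Slc6a6, Slc6a8, Slc6a9 and Slc6a19, where 13.1% of all genes had this pattern. The 8 called lower in every strain were Slc1a6, Slc38a8, Slc38a9, Slc3a1, Slc6a7, Slc6a17, Slc7a4 and Slc7a10, where 13.7% of all genes did. The members that rose with a ratio of at least 1.5 numbered 13 in CAST, 13 in DBA and 9 in C57, against 12.3%, 12.7% and 8.29% of all genes. Those that fell by that much numbered 5, 8 and 4, against 7.66%, 9.48% and 6.07%. The median difference on the log2(FPKM + 1) scale was 0.0070 for the tested members and 0.0015 for all genes in CAST, 0.013 and 0.0013 in DBA, and 0.0048 and -0.00023 in C57. Without the 3 libraries that stood apart, an alternative chosen after seeing the data, the called members numbered 32 in CAST, 34 in DBA and 28 in C57. Of these, 21 rose and 11 fell in CAST, 22 rose and 12 fell in DBA, and 16 rose and 12 fell in C57. The C57 calls of Slc6a8 and Slc6a12 were lost there (adjusted p = 0.0697 and 0.0756), so Slc6a8 was no longer called higher in every strain. In bulk ganglia, fewer cells of a type and less RNA per cell cannot be told apart.

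**Figure D1:**
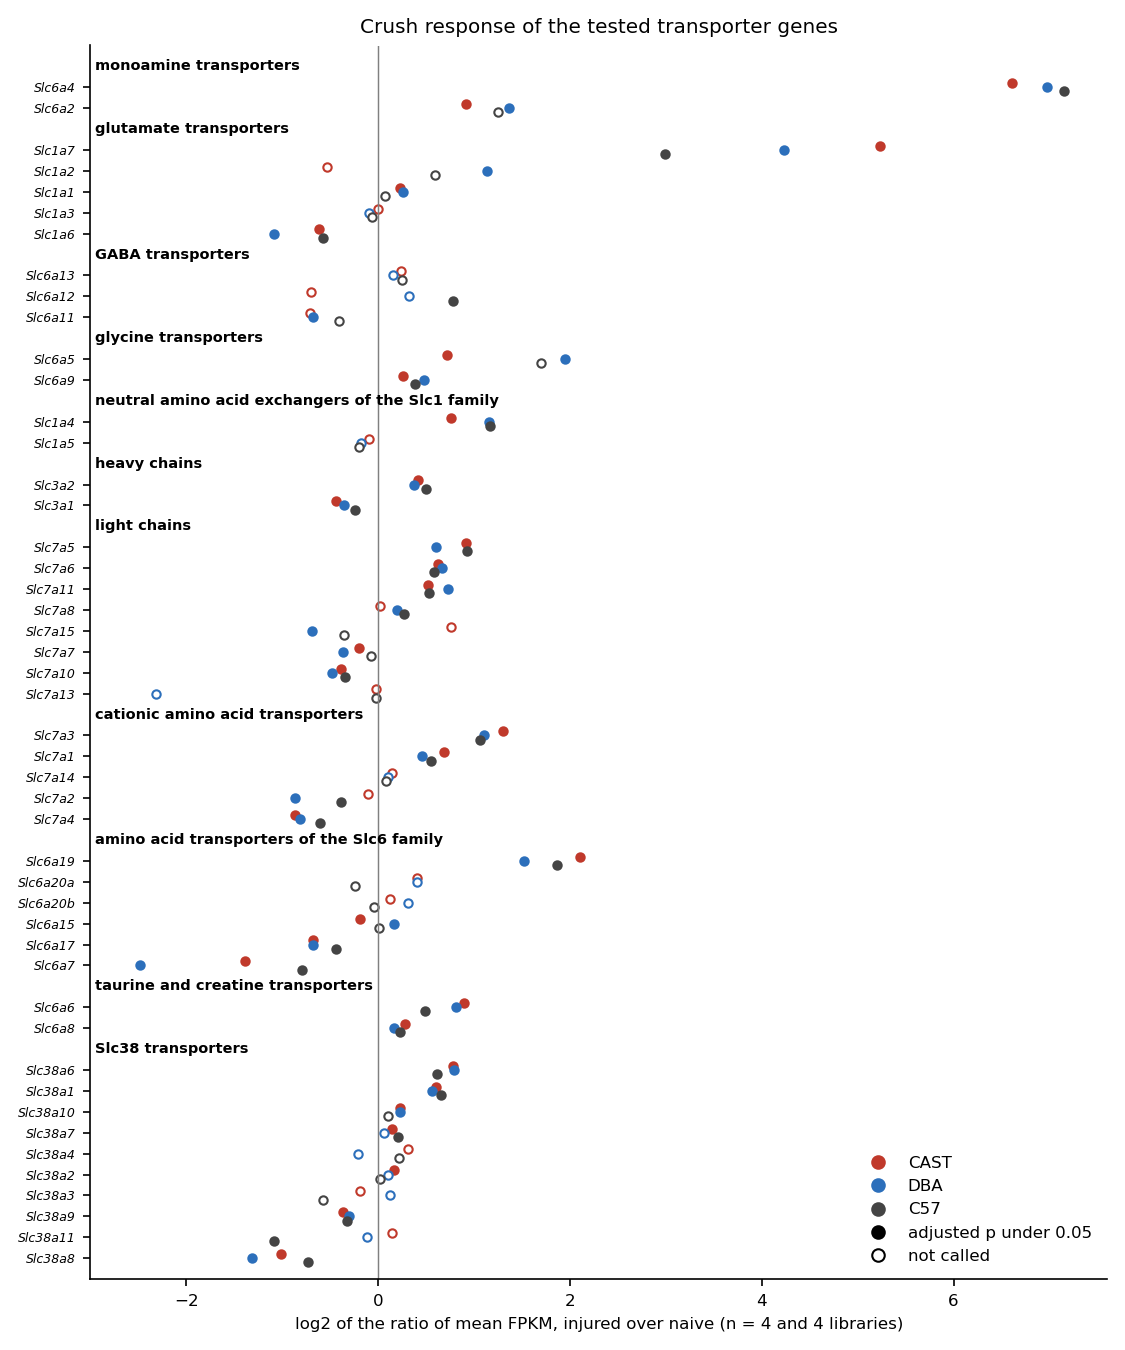
Ratios of mean FPKM on a log2 axis, injured over naive ganglia, for 47 of the 48 tested transporters, grouped by role. Each gene has a point per strain (red CAST, blue DBA, grey C57), filled where the adjusted p was under 0.05 and open otherwise, and Slc6a4 and Slc1a7 lie farthest to the right in all strains.

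Marker genes of some cell types moved with injury, where 47.2% of all genes were called in CAST, 50.2% in DBA and 38.6% in C57. The summed FPKM of 11 macrophage genes was 40.9 to 52.6 in CAST injured against 4.70 to 5.86 in CAST naive libraries, 35.1 to 39.2 in DBA injured against 5.92 to 7.54 in DBA naive, and 28.3 to 33.4 in C57 injured against 5.84 to 7.26 in C57 naive. All 11 rose in each strain. Fibroblast genes rose in 8 of 10 in CAST, 9 in DBA and 5 in C57, where the sums were 31.9 to 34.6 against 13.2 to 18.0, 39.7 to 45.0 against 15.0 to 23.3, and 20.3 to 26.2 against 11.5 to 19.8, injured against naive. The sum of 12 neuronal genes was 1535 to 1660 in CAST injured against 1930 to 1999 in CAST naive, 1755 to 1878 in DBA injured against 2026 to 2229 in DBA naive, and 1430 to 1757 in C57 injured against 1847 to 1951 in C57 naive libraries. Of these 12 genes, 3 rose and 7 fell in CAST, 3 rose and 8 fell in DBA, and 3 rose and 7 fell in C57. The 3 that rose in each strain were Tubb3, Stmn2 and Uchl1, and Tubb3, a neuronal tubulin, had ratios of 1.80, 1.92 and 1.66 in CAST, DBA and C57. The neurofilament genes Nefl, Nefm and Nefh, which hold most of the sum, fell, and Nefl had ratios of 0.666, 0.694 and 0.702. All 12 neuronal genes passed the filter for testing. Of 12 satellite glia genes, 3 rose and 3 fell in CAST, 6 rose and 1 fell in DBA, and 4 rose and 1 fell in C57. Of 10 genes of myelinating Schwann cells, 3 rose and 0 fell in CAST, 2 rose and 1 fell in DBA, and 1 rose and 0 fell in C57. The part of these shifts in the transporter responses was not tested.

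Slc6a4, the serotonin transporter that clears serotonin from around a cell, had the widest response of the set. The gene spans chr11:76998603-77032340 on the plus strand of mm10. CAST libraries had 0.61, 0.75, 0.72 and 0.534 FPKM in injured ganglia, against 0.0101, 0.00742, 0.00488 and 0.0043 FPKM in naive ganglia. DBA ganglia had 0.818, 0.818, 0.789 and 0.807 FPKM in injured and 0.008, 0.00527, 0.00728 and 0.00524 FPKM in naive ganglia. In C57 it had 0.514, 0.46, 0.466 and 0.403 FPKM in injured and 0.0029, 0.00314, 0.00407 and 0.00283 FPKM in naive ganglia. Every injured library lay far above every naive library, with no overlap in any strain. The ratio was 98 in CAST (adjusted p = 4.4e-14), 125 in DBA (adjusted p = 2.98e-15) and 142 in C57 (adjusted p = 5.3e-12). Naive libraries held only 9 to 35 estimated reads of this gene, against 808 to 3177 in injured ones, so the size of the ratio rests on few naive reads while its direction does not.

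Among the other monoamine carriers, Slc6a2, the noradrenaline transporter, was measured at low depth. It averaged 0.0152 ± 0.0019 FPKM in CAST injured and 0.00806 ± 0.00189 FPKM in CAST naive ganglia (SD, n = 4 each), a ratio of 1.88 (adjusted p = 6.45e-05). In DBA the means were 0.00906 ± 0.0026 and 0.00351 ± 0.00175 FPKM, injured and naive, a ratio of 2.58 (adjusted p = 0.000749). In C57 the ratio was 2.38 and did not pass the threshold (adjusted p = 0.402), with 5 to 15 estimated reads in injured and 3 to 5 in naive libraries. The groups did not overlap within any strain.

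Slc1a7, a glutamate transporter best known from the retina, was the second widest response. CAST libraries had 0.111, 0.124, 0.0985 and 0.119 FPKM in injured ganglia, against 0.00375, 0.00269, 0.00307 and 0.00255 FPKM in naive ganglia. The DBA libraries had 0.0948, 0.0904, 0.0838 and 0.0806 FPKM in injured and 0.00514, 0.00349, 0.006 and 0.00397 FPKM in naive ganglia. In C57 it had 0.0559, 0.0448, 0.0411 and 0.0423 FPKM in injured and 0.0047, 0.00571, 0.0065 and 0.0063 FPKM in naive ganglia. Injured and naive libraries did not overlap in any strain, and the injured libraries of C57 lay below all injured libraries of CAST and DBA. The ratio was 37.6 in CAST, 18.8 in DBA and 7.93 in C57 (adjusted p = 1.43e-14, 7.42e-13 and 5.48e-08). As for Slc6a4, naive libraries held few estimated reads of it, 12 to 31, against 96 to 784 in injured ones.

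**Figure D2:**
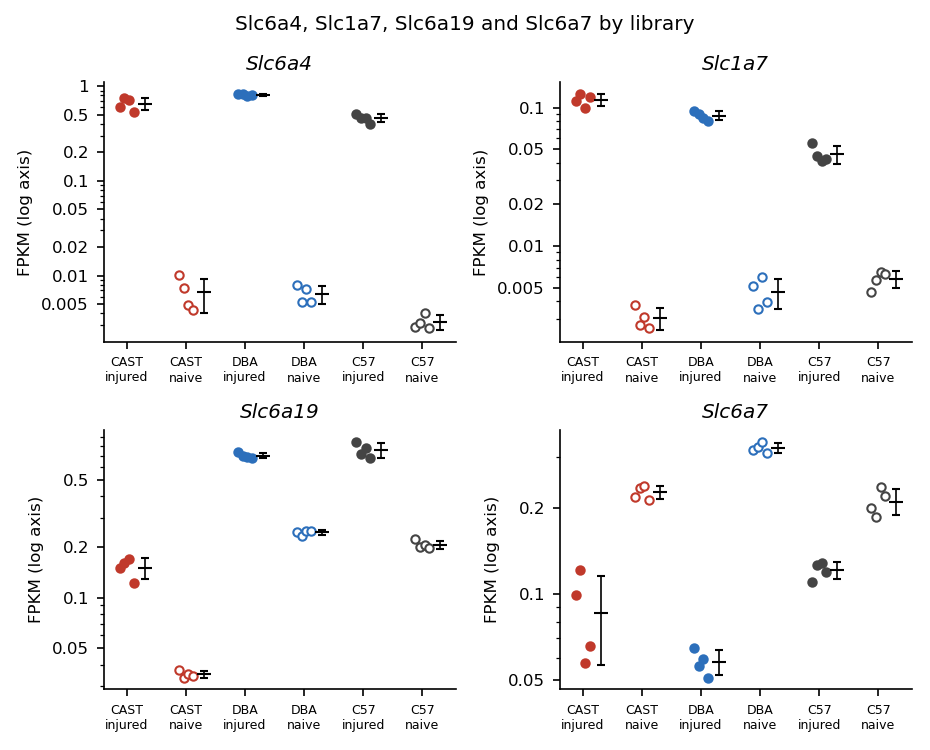
FPKM of Slc6a4, Slc1a7, Slc6a19 and Slc6a7 in every library on log axes, injured (filled) and naive (open) in CAST, DBA and C57. Points are libraries (4 per group) and the bar beside each group is the mean with its SD, and the injured and naive points of a strain do not overlap in any panel.

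Slc1a6, a glutamate transporter known from Purkinje cells, fell in every strain. It averaged 0.115 ± 0.00659 FPKM in CAST injured and 0.176 ± 0.00868 FPKM in CAST naive ganglia, 0.65 times the naive level (adjusted p = 2.41e-05). The ratio was 0.47 in DBA (adjusted p = 1.13e-08) and 0.672 in C57 (adjusted p = 1.89e-05). The groups did not overlap in any strain, and the lowest DBA naive library, at 0.193 FPKM, lay above the highest DBA injured library, at 0.104 FPKM. Slc1a3, the glutamate transporter by which glia clear synaptic glutamate, was not called in any strain, with ratios of 1.0 in CAST, 0.938 in DBA and 0.957 in C57.

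Slc1a2, the main glutamate transporter of astrocytes, had 0.0245, 0.0196, 0.0281 and 0.0232 FPKM in DBA injured and 0.0109, 0.0126, 0.00959 and 0.0104 FPKM in DBA naive ganglia. The groups did not overlap, and the ratio was 2.19 (adjusted p = 5.26e-05). In CAST, naive replicate 2 had 0.0166 FPKM while the other 3 naive libraries had 0.0031, 0.00312 and 0.00321 FPKM, against 0.00528, 0.00494, 0.00382 and 0.0039 FPKM in injured libraries. The CAST ratio was 0.689 with that library and 1.43 without it, and neither was called (adjusted p = 0.497 and 0.444). The same library was high in Slc6a11, a GABA transporter of astrocytes, at 0.0809 FPKM beside 0.0278 to 0.0359 in the other 3. Its summed FPKM over 7 genes of central glia, a list made after the values were seen, was 1.18, against 0.356 to 0.852 in the 23 other libraries. Most of that sum was Olig1, at 0.713 FPKM beside 0.422 to 0.514 in the other CAST naive libraries. Among the oligodendrocyte genes, Mobp had 0.0446 FPKM there and 0.00124 to 0.00229 FPKM in the others, and Mog, Opalin and Olig2 were also highest there. Of the astrocyte genes, Aqp4 had 0.262 FPKM there and 0.158 to 0.233 in the others, and Gjb6 was lowest there, at 0.0716 FPKM beside 0.0863 to 0.127. The part of this in the CAST values of Slc1a2 and Slc6a11 was not tested further.

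Among the GABA transporters, Slc6a11 fell in DBA to 0.0376 ± 0.0016 FPKM in injured, against 0.06 ± 0.00205 FPKM in naive ganglia (adjusted p = 0.0131), with no overlap. In C57 its ratio was 0.754 (adjusted p = 0.224), and in CAST it was 0.610, or 0.836 without naive replicate 2 (adjusted p = 0.0525 and 0.148). Slc6a12, which also carries the osmolyte betaine, rose in C57, at 0.0149, 0.0106, 0.0176 and 0.0133 FPKM in injured and 0.00615, 0.00726, 0.0109 and 0.0085 FPKM in naive ganglia (adjusted p = 0.0336). The C57 groups overlapped, the libraries held 13 to 36 estimated reads, and the call was lost without C57 injured replicate 1 or 3 or C57 naive replicate 1, 2 or 4, with adjusted p from 0.0545 to 0.11. In CAST, Slc6a12 went the other way, at 0.0076 ± 0.00134 FPKM in injured and 0.0124 ± 0.0018 FPKM in naive ganglia. The CAST groups did not overlap, but the gene was not called there. In DBA the means were 0.0132 and 0.0105 FPKM, injured and naive, with overlap and no call. Slc6a13 was not called, with ratios from 1.12 in DBA to 1.18 in CAST.

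Both glycine transporters had calls. Slc6a9, which sets extracellular glycine around glia and synapses, averaged 0.0578 ± 0.00323 FPKM in CAST injured and 0.0484 ± 0.0021 FPKM in CAST naive ganglia, a ratio of 1.2 (adjusted p = 0.000505). Its ratio was 1.39 in DBA (adjusted p = 9.34e-08) and 1.3 in C57 (adjusted p = 7.46e-06), with no overlap in any strain. It shares 1429 exon bases with Ccdc24 on the other strand and 511 with Gm17114, and reads of the 2 strands cannot be told apart here. Slc6a5, the glycine transporter of inhibitory neurons, sat at 18 to 24 estimated reads in CAST injured and 8 to 14 in CAST naive libraries. It was called higher in CAST, where 1 or more libraries overlapped, and in DBA, where none did, with ratios of 1.65 and 3.86 (adjusted p = 0.0342 and 0.0377). In DBA, the naive libraries held only 1 to 4 reads and the injured ones 6 to 11. The CAST call was lost without CAST injured replicate 1 or 3 or CAST naive replicate 1, 2 or 4, with adjusted p of 0.0627 to 0.126. The DBA call was lost without DBA injured replicate 1, 2 or 3 or DBA naive replicate 1, 3 or 4, with adjusted p of 0.0594 to 0.102. Fitted on only the groups compared, neither Slc6a5 call held (adjusted p = 0.153 in CAST and 0.1 in DBA), and the CAST call was lost with upper quartile scaling (0.0554).

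The large neutral amino acid transporter is made of the light chain Slc7a5 and the heavy chain Slc3a2, and brings leucine and other large amino acids into cells. Slc7a5 had 5.04, 4.65, 3.98 and 4.36 FPKM in CAST injured, against 2.56, 2.17, 2.27 and 2.58 FPKM in CAST naive ganglia. In DBA it had 3.47, 3.3, 3.6 and 3.42 FPKM in injured and 2.23, 2.31, 2.3 and 2.23 FPKM in naive ganglia. In C57 it had 4.25, 3.75, 3.88 and 3.5 FPKM in injured and 2.04, 2.04, 1.98 and 2.03 FPKM in naive ganglia. All injured libraries of a strain lay above its naive libraries. The ratio was 1.88 in CAST, 1.52 in DBA and 1.9 in C57 (adjusted p = 6.43e-10, 3.88e-07 and 1.73e-09).

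Slc3a2 had 6.75, 6.29, 6.6 and 6.58 FPKM in CAST injured, against 4.86, 4.63, 4.91 and 5.29 FPKM in CAST naive ganglia. DBA ganglia had 6.66, 6.46, 6.74 and 6.63 FPKM in injured and 5.02, 5.15, 5.07 and 5.15 FPKM in naive ganglia, and in C57 6.6, 6.21, 5.92 and 6.0 FPKM in injured and 4.76, 4.13, 4.28 and 4.32 FPKM in naive ganglia. The heavy chain rose with no overlap in each strain, with ratios of 1.33 in CAST, 1.3 in DBA and 1.41 in C57 (adjusted p = 1.32e-07, 4.19e-07 and 1.86e-08). Of the further light chains that pair with Slc3a2, Slc7a6, which exchanges cationic for neutral amino acids, averaged 1.59 ± 0.0445 FPKM in CAST injured and 1.03 ± 0.0442 FPKM in CAST naive ganglia. Its ratio was 1.54 in CAST, 1.58 in DBA and 1.5 in C57 (adjusted p = 1.58e-10, 3.81e-11 and 6.94e-10). Slc7a8, a light chain of similar range to Slc7a5, rose in DBA and C57 with ratios of 1.15 and 1.2 (adjusted p = 0.00116 and 0.000158), and was not called in CAST (adjusted p = 0.825).

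Slc7a11, the light chain that brings in cystine in exchange for glutamate and so feeds glutathione synthesis, is the gene whose promoter window held the paired TGATGNAA motif. In CAST it had 0.52, 0.47, 0.471 and 0.614 FPKM in injured ganglia, against 0.364, 0.347, 0.391 and 0.348 FPKM in naive ganglia. The DBA libraries had 2.08, 1.6, 1.7 and 1.95 FPKM in injured and 1.08, 1.07, 1.1 and 1.17 FPKM in naive ganglia, the highest of the strains in both states. In C57 it had 0.745, 0.717, 0.533 and 0.639 FPKM in injured and 0.547, 0.389, 0.428 and 0.466 FPKM in naive ganglia, where the lowest injured library lay below the highest naive one. The ratio was 1.43 in CAST, 1.66 in DBA and 1.44 in C57 (adjusted p = 0.0121, 3.11e-07 and 0.00443).

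Slc1a4, a neutral amino acid exchanger that carries serine, alanine and cysteine, had 1.76, 2.01, 1.99 and 1.9 FPKM in CAST injured, against 1.13, 1.11, 1.09 and 1.2 FPKM in CAST naive ganglia. In DBA it had 2.6, 2.47, 2.44 and 2.68 FPKM in injured and 1.15, 1.15, 1.15 and 1.12 FPKM in naive ganglia, and in C57 2.94, 2.46, 2.76 and 2.48 FPKM in injured and 1.22, 1.2, 1.17 and 1.16 FPKM in naive ganglia. Naive levels were close across strains, while every CAST injured library lay below every injured library of DBA and C57. The ratio was 1.69 in CAST, 2.23 in DBA and 2.25 in C57 (adjusted p = 1.78e-09, 1.08e-12 and 1.82e-12). Slc1a5, the related glutamine exchanger, was not called, with ratios of 0.938 in CAST, 0.88 in DBA and 0.869 in C57.

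Cationic transporters, which bring in arginine, lysine and ornithine, moved both ways. Slc7a1, the widely expressed form, had 1.07, 1.14, 1.12 and 1.09 FPKM in CAST injured, against 0.701, 0.689, 0.684 and 0.684 FPKM in CAST naive ganglia. Its ratio was 1.61 in CAST, 1.38 in DBA and 1.47 in C57 (adjusted p = 6.47e-09, 6.99e-07 and 1.34e-07), with no overlap. Slc7a3, a form expressed in neurons, had 0.0754, 0.0762, 0.0613 and 0.0698 FPKM in CAST injured, against 0.026, 0.029, 0.0311 and 0.0289 FPKM in CAST naive ganglia. DBA ganglia had 0.141, 0.157, 0.175 and 0.167 FPKM in injured and 0.07, 0.0695, 0.075 and 0.0838 FPKM in naive ganglia, and in C57 0.295, 0.276, 0.258 and 0.255 FPKM in injured and 0.128, 0.128, 0.131 and 0.133 FPKM in naive ganglia. Slc7a3 rose with no overlap in every strain, at ratios of 2.46, 2.14 and 2.09 in CAST, DBA and C57 (adjusted p = 1.7e-05, 1.87e-09 and 6.28e-12).

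**Figure D3:**
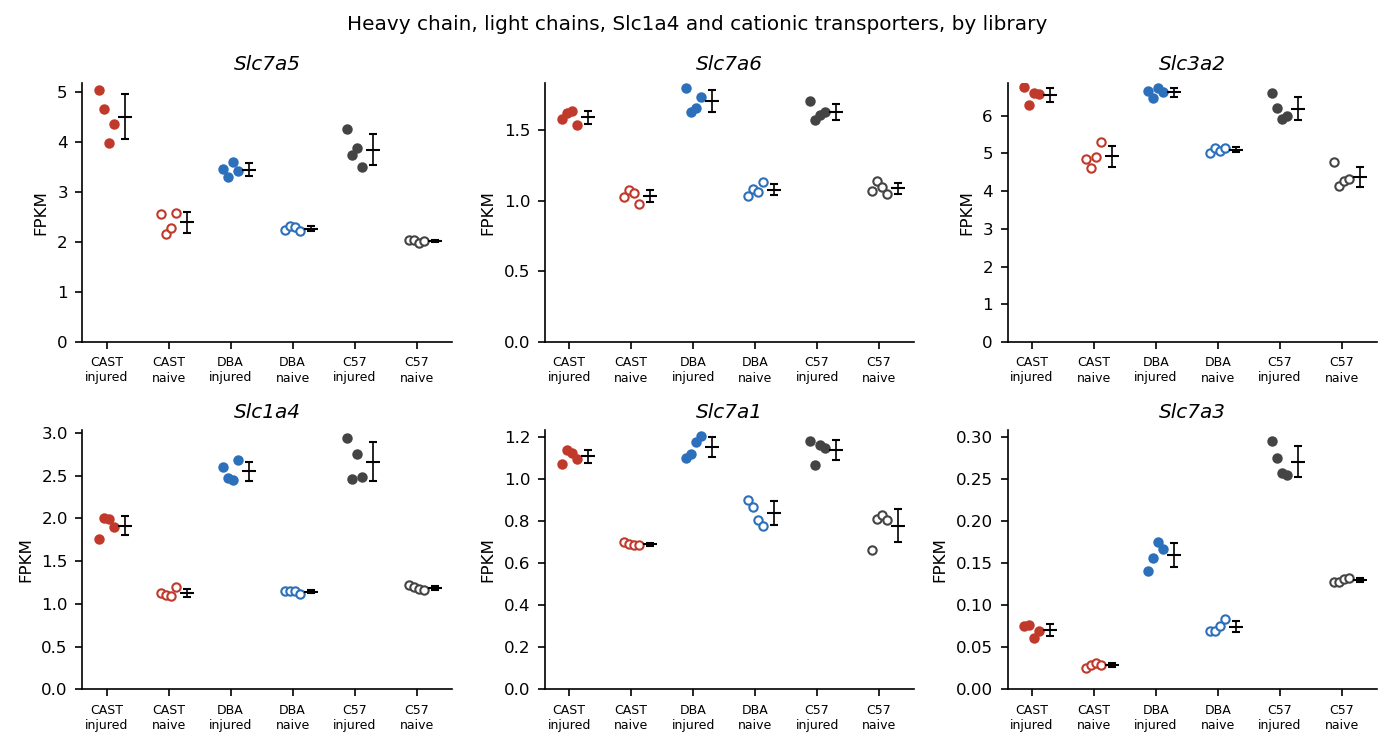
FPKM of Slc7a5, Slc7a6, Slc3a2, Slc1a4, Slc7a1 and Slc7a3 in every library, injured (filled) and naive (open) in CAST, DBA and C57, on axes that start at 0. Points are libraries (4 per group), the bar is the mean with its SD, and each injured group lies above the naive group of its strain in all 6 panels.

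In the same class, Slc7a2, which supplies arginine to nitric oxide synthesis in macrophages and other cells, fell in DBA to 0.264 ± 0.0224 FPKM in injured, against 0.482 ± 0.0305 FPKM in naive ganglia (adjusted p = 5.93e-07). It fell in C57 with a ratio of 0.766 (adjusted p = 0.00844), where 1 naive library overlapped the injured ones, and had a ratio of 0.928 in CAST (adjusted p = 0.38). Slc7a4, for which no transport activity is established, had 0.633, 0.592, 0.483 and 0.616 FPKM in CAST injured, against 1.03, 1.07, 1.04 and 1.1 FPKM in CAST naive ganglia. It fell in all strains, with ratios of 0.549 in CAST, 0.566 in DBA and 0.659 in C57 (adjusted p = 2.51e-09, 1.83e-08 and 1.22e-06). It shares 554 exon bases with P2rx6 on the other strand, which had ratios of 0.471, 0.491 and 0.607 in CAST, DBA and C57. Slc7a14, a lysosomal member, was not called, with ratios of 1.11 in CAST, 1.07 in DBA and 1.06 in C57.

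Of the Slc6 amino acid transporters, Slc6a19 and Slc6a7 moved most. Slc6a19, which takes up neutral amino acids in kidney and intestine, had 0.15, 0.161, 0.171 and 0.122 FPKM in CAST injured, against 0.0371, 0.0335, 0.0352 and 0.0345 FPKM in CAST naive ganglia. The DBA libraries had 0.739, 0.7, 0.689 and 0.675 FPKM in injured and 0.245, 0.234, 0.249 and 0.251 FPKM in naive ganglia, and in C57 0.846, 0.716, 0.778 and 0.677 FPKM in injured and 0.223, 0.2, 0.205 and 0.199 FPKM in naive ganglia. The rise did not overlap in any strain, and the CAST injured libraries all lay below the naive libraries of DBA and C57. The ratio was 4.3 in CAST, 2.86 in DBA and 3.65 in C57 (adjusted p = 2.91e-06, 3.3e-13 and 5.67e-14).

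Slc6a7, the brain proline transporter of glutamatergic neurons, fell. In CAST it had 0.0996, 0.121, 0.0575 and 0.0661 FPKM in injured ganglia, against 0.218, 0.235, 0.238 and 0.213 FPKM in naive ganglia. In DBA it had 0.065, 0.056, 0.0592 and 0.0511 FPKM in injured and 0.317, 0.325, 0.339 and 0.311 FPKM in naive ganglia. In C57 it had 0.11, 0.127, 0.128 and 0.119 FPKM in injured and 0.199, 0.186, 0.235 and 0.219 FPKM in naive ganglia. The DBA naive libraries were the highest, the DBA injured ones overlapped the lower CAST injured ones, and injured and naive libraries did not overlap in any strain. It was 2.62-fold lower after crush in CAST, 5.58-fold lower in DBA and 1.73-fold lower in C57 (adjusted p = 5.25e-09, 4.37e-13 and 5.51e-06).

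Slc6a17, which loads neutral amino acids into synaptic vesicles, was 1.6-fold lower in CAST, 1.6-fold lower in DBA and 1.36-fold lower in C57 (adjusted p = 3.64e-08, 5.87e-08 and 3.19e-05). In CAST it averaged 0.637 ± 0.0448 FPKM in injured and 1.02 ± 0.0303 FPKM in naive ganglia. Slc6a15, a neuronal carrier of branched-chain amino acids and proline, was called in opposite directions. It had 1.05, 1.02, 1.16 and 1.06 FPKM in CAST injured, against 1.28, 1.25, 1.18 and 1.17 FPKM in CAST naive ganglia, and fell (adjusted p = 0.00172). DBA ganglia had 1.48, 1.44, 1.53 and 1.56 FPKM in injured and 1.36, 1.34, 1.33 and 1.33 FPKM in naive ganglia, and rose (adjusted p = 0.00215). In C57 the ratio was 1.0 (adjusted p = 0.938). Slc6a20a and Slc6a20b, carriers of proline and related imino acids, were not called, and reads shared between these paralogs may be split by the counting.

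Slc6a6 carries taurine, an osmolyte, and Slc6a8 carries creatine. Slc6a6 had 0.733, 0.87, 0.728 and 0.722 FPKM in CAST injured, against 0.464, 0.439, 0.4 and 0.337 FPKM in CAST naive ganglia. It rose in every strain with no overlap, at ratios of 1.86 in CAST, 1.76 in DBA and 1.4 in C57 (adjusted p = 7.18e-08, 3.8e-06 and 0.00311). Slc6a8 rose less, at ratios of 1.22, 1.12 and 1.17 in CAST, DBA and C57 (adjusted p = 0.000603, 0.0324 and 0.00809). Its DBA call was lost without DBA injured replicate 1, 2 or 3 or DBA naive replicate 4 (adjusted p of 0.0645 to 0.132), and its C57 call without the 3 libraries that stood apart (adjusted p = 0.0697).

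Among the Slc38 transporters, 5 of 10 tested rose and 2 fell in CAST, 3 rose and 2 fell in DBA, and 3 rose and 3 fell in C57, beside 47.2%, 50.2% and 38.6% of all genes called in CAST, DBA and C57. The 5 of 10 called in DBA lie at that share. Slc38a1, a sodium-coupled glutamine transporter of neurons, had 0.516, 0.517, 0.528 and 0.49 FPKM in CAST injured, against 0.348, 0.332, 0.339 and 0.335 FPKM in CAST naive ganglia, and rose in each strain at ratios of 1.51, 1.48 and 1.57 in CAST, DBA and C57 (adjusted p = 1.57e-08, 2.61e-07 and 5.55e-08). Slc38a6 rose at ratios of 1.72, 1.73 and 1.53 (adjusted p = 1.49e-05, 1.15e-08 and 2.53e-06). Neither overlapped between injured and naive libraries. Slc38a2, which cells raise when starved of amino acids, had 29.6 ± 1.49 FPKM in CAST injured and 26.5 ± 0.427 FPKM in CAST naive ganglia, a ratio of 1.12 (adjusted p = 0.0322). Its ratios of 1.08 in DBA and 1.02 in C57 were not called (adjusted p = 0.154 and 0.765).

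Slc38a8, a glutamine transporter studied mainly in the eye, fell to 0.0159 ± 0.00166 FPKM in CAST injured, against 0.0322 ± 0.00116 FPKM in CAST naive ganglia. It was 2.02-fold lower in CAST, 2.5-fold lower in DBA and 1.66-fold lower in C57 (adjusted p = 2.43e-07, 1.15e-08 and 9.75e-05), with no overlap. Slc38a9, the lysosomal arginine sensor upstream of mTORC1, fell at ratios of 0.774, 0.807 and 0.798 in CAST, DBA and C57 (adjusted p = 3.28e-05, 0.000141 and 5.06e-05). Slc38a11 fell in C57 to 0.00768, 0.00798, 0.00645 and 0.00599 FPKM in injured, against 0.0109, 0.019, 0.019 and 0.0107 FPKM in naive ganglia (adjusted p = 0.000158), and had ratios of 1.1 in CAST and 0.923 in DBA that were not called. Slc38a7, Slc38a10 and Slc1a1 moved by ratios of at most 1.19 in any strain. Slc38a3 and Slc38a4, and the light chain Slc7a13, were not called in any strain.

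Some genes overlap another gene on the other strand, and whether the counting used strand is not stated in the labels. Slc3a1, the heavy chain of the cystine and dibasic amino acid transporter, shares 601 exon bases with Prepl. It fell at ratios of 0.74 in CAST, 0.784 in DBA and 0.846 in C57, and Prepl at 0.734, 0.773 and 0.818. Slc7a10, which carries serine, glycine and alanine, shares 377 exon bases with Lrp3 and fell at 0.763, 0.715 and 0.788, and Lrp3 at 0.769, 0.717 and 0.792. The ratio of Slc7a10 to Lrp3 estimated reads stayed within 0.480 to 0.510 over 24 libraries, a coefficient of variation of 1.58%, while Slc7a10 itself varied by 18.9%. For Slc3a1 and Prepl the ratio ran from 1.12 to 1.49 (5.83%, against 15.3% for Slc3a1). The reads of these pairs cannot be told apart, so the values of Slc3a1 and Slc7a10 may belong to either gene. Not every overlap gave similar values in both genes. Slc6a20b shares 1800 exon bases with Sacm1l on the other strand, and held only 0.00064 to 0.0023 estimated reads per read of Sacm1l. How the counting treated shared bases was not tested. Slc7a7, a light chain that exports cationic amino acids and shares 232 exon bases with Oxa1l, fell in CAST and DBA at 0.872 and 0.777 (adjusted p = 0.00227 and 7.56e-06), while Oxa1l had ratios of 0.946 and 0.944 that were not called.

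**Figure D4:**
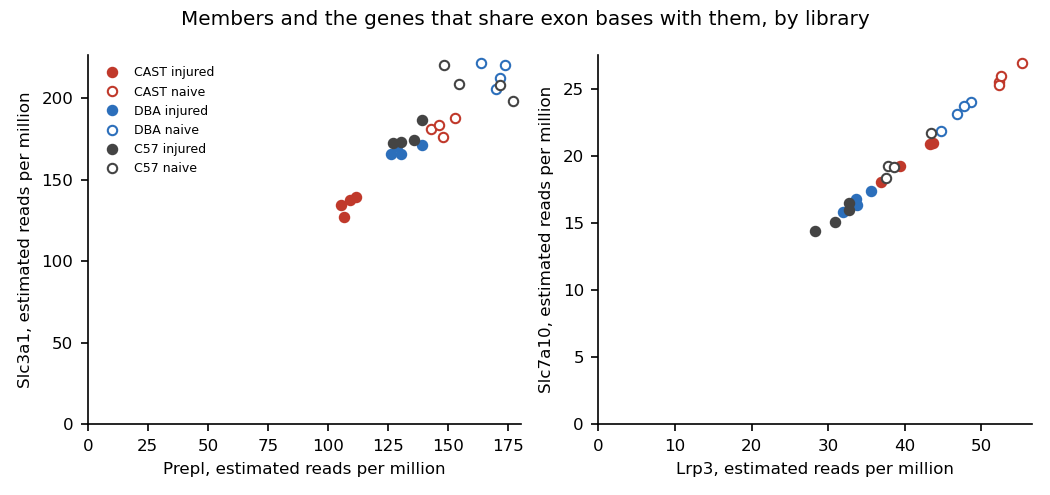
Estimated reads, scaled to library depth (CPM), of Slc3a1 against Prepl (left) and of Slc7a10 against Lrp3 (right) in the 24 libraries, coloured by strain, filled for injured and open for naive. The Slc7a10 points lie along a line, at 0.480 to 0.510 reads of Slc7a10 per read of Lrp3, and the Slc3a1 points scatter more, at 1.12 to 1.49.

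The crush response differed between CAST and C57 for 12 of the 48 tested members (5 higher and 7 lower in CAST), beside 13.1% of all genes (7.99% higher and 5.13% lower). Between CAST and DBA it differed for 15 members (15.6% of all genes, 8.08% higher and 7.54% lower) and between DBA and C57 for 11 (9.03%, 5.38% higher and 3.65% lower). The split was 6 higher and 9 lower for CAST against DBA and 5 and 6 for DBA against C57. On log2(CPM + 0.5) it was 3 and 7 for CAST against C57, 6 and 3 for CAST against DBA and 3 and 6 for DBA against C57, and with voom 2 and 7, 7 and 5, and 1 and 6. The scale log2(CPM + 0.5) of the estimated reads shrinks low values of these genes less than log2(FPKM + 1). It still shrinks fold changes near or below 0.5 CPM, where Slc6a4 and Slc1a7 lay in naive libraries. Slc7a3 and Slc38a11 in CAST and Slc6a12 in every group lay there too. This scale kept 8, 9 and 7 of the calls made on log2(FPKM + 1). Those kept between CAST and C57 were Slc1a4, Slc1a7, Slc38a11, Slc3a1, Slc6a12, Slc6a7, Slc7a3 and Slc7a8. For Slc7a3 the rise was smaller in CAST on both log2 scales, while its ratio of mean FPKM was higher in CAST than in C57. No order of these strains is therefore drawn for the Slc7a3 response. Those kept between CAST and DBA were Slc1a2, Slc1a4, Slc1a6, Slc1a7, Slc6a15, Slc6a7, Slc7a15, Slc7a2 and Slc7a5, and those between DBA and C57 were Slc1a7, Slc38a11, Slc6a4, Slc6a7, Slc7a2, Slc7a5 and Slc7a7. Of the last group, Slc6a4 was not called with voom (adjusted p = 0.94), and its ratio was lower in DBA than in C57. The DBA and C57 count was 6 without DBA naive replicate 2, 7 without DBA injured replicate 4 or C57 naive replicate 1, 2 or 4, and 8 without the 3 libraries that stood apart, where the other counts were 13 for CAST and C57 and 16 for CAST and DBA.

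Slc1a4 rose less in CAST, with a CAST minus C57 difference of -0.29 ± 0.0507 (SE) on log2(FPKM + 1) (adjusted p = 0.000393) and a CAST minus DBA difference of -0.28 ± 0.0507 (adjusted p = 0.000517). Slc1a7 rose more in CAST than in C57, by 1.39 ± 0.113 on log2(CPM + 0.5) (adjusted p = 4.5e-09), more in CAST than in DBA, by 0.49 ± 0.113 (adjusted p = 0.0035), and more in DBA than in C57, by 0.89 ± 0.113 (adjusted p = 8.75e-06). Slc6a7 fell more in DBA than in C57, with a difference of -1.38 ± 0.164 on that scale (adjusted p = 3.82e-06), and less in CAST than in DBA, with a difference of 0.85 ± 0.164 (adjusted p = 0.000638). These 3 genes thus differed in size of response while keeping its direction in each strain. Slc7a2 fell more in DBA than in C57 (adjusted p = 0.0361), and its response was higher in CAST than in DBA (adjusted p = 0.0011). Slc6a15 was the member with opposite calls, and its response was lower in CAST than in DBA, with a difference of -0.20 ± 0.0339 (SE) on log2(FPKM + 1) (adjusted p = 0.000311).

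Slc7a5 rose less in DBA than in CAST (CAST minus DBA 0.25 ± 0.0731 (SE), adjusted p = 0.0211), a call lost without CAST naive replicate 2 (adjusted p = 0.0515). The DBA minus C57 difference of -0.23 ± 0.0731 (SE) lay at the threshold (adjusted p = 0.0497). It was lost without any 1 of the DBA libraries or C57 naive libraries, without C57 injured replicate 1, 2 or 3, without CAST injured replicate 2 or 4 and without CAST naive replicate 1 or 3, with adjusted p of 0.0501 to 0.1, and with no filter on low values (0.0688) or a filter of 0.1 FPKM (0.0569). The Slc3a1 difference between CAST and C57 (-0.15 ± 0.0452 (SE), adjusted p = 0.0314) was lost without C57 injured replicate 3, C57 naive replicate 2 or 3, CAST injured replicate 2 or CAST naive replicate 3 or 4, with adjusted p of 0.0518 to 0.0688, and on only the groups compared (0.0808). For Slc7a11, called between DBA and C57 at an adjusted p of 0.0328, the call was lost without C57 injured replicate 3 or 4, C57 naive replicate 1 or 4, DBA injured replicate 1 or 4 or DBA naive replicate 1 or 2, with adjusted p of 0.0563 to 0.0759. On log2(CPM + 0.5), Slc7a11 had an adjusted p of 0.525 between DBA and C57 and 0.421 between CAST and DBA, so strain differences in its fold were not called on that scale. The Slc7a7 difference between DBA and C57 was lost on only the groups compared (adjusted p = 0.0682).

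For 2 members with large differences on log2(FPKM + 1), the value depended on the scale. For Slc6a19 the CAST minus DBA difference was -0.30 ± 0.029 (SE) on log2(FPKM + 1) (adjusted p = 2.74e-07) but 0.18 ± 0.102 (SE) on log2(CPM + 0.5) (adjusted p = 0.278). With voom it was 0.55 and was called in the opposite direction (adjusted p = 0.0149). The CAST minus C57 difference of Slc6a19 was -0.39 ± 0.029 (SE) (adjusted p = 9.73e-09), -0.14 ± 0.102 (SE) on log2(CPM + 0.5) (adjusted p = 0.457) and 0.20 with voom (adjusted p = 0.488). Its ratio was 4.3 in CAST, 2.86 in DBA and 3.65 in C57, so that no order of the strains held across scales. For Slc6a4 the CAST minus C57 difference was 0.17 ± 0.0395 (SE) (adjusted p = 0.00482) and 0.24 ± 0.13 (SE) on log2(CPM + 0.5) (adjusted p = 0.277). The DBA minus C57 difference of Slc6a4, 0.30 ± 0.0395 (SE), was -0.11 with voom and not called (adjusted p = 0.94). The injured level of Slc6a4 was 0.654 ± 0.0997 FPKM in CAST, 0.808 ± 0.0133 FPKM in DBA and 0.461 ± 0.0454 FPKM in C57 ganglia (SD, n = 4 each), in which every DBA library lay above every CAST and C57 library.

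In naive ganglia, CAST differed from C57 in 25 of the 48 tested members (16 higher and 9 lower in CAST), where 44% of all genes did (24.1% higher and 19.9% lower). CAST differed from DBA in 25 (11 higher and 14 lower), where 44.2% did (23.7% and 20.5%), and DBA differed from C57 in 15 (10 higher and 5 lower), where 21.3% did (11.1% and 10.2%). Reads of all strains were aligned to the same reference, which comes from C57BL/6, so a lower level in CAST or DBA and a lower share of aligned reads cannot be told apart. All but 1 of these calls, Slc1a6 between CAST and DBA, were also called on log2(CPM + 0.5). For CAST against C57 the split was 11 higher and 12 lower after upper quartile scaling and 15 and 13 with voom. Without the 3 libraries that stood apart the counts were 24, 25 and 12.

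Slc7a15, the mouse light chain of an aromatic-preferring amino acid transporter, was the member that differed most. It had 0.024, 0.0294, 0.0221 and 0.0246 FPKM in CAST naive, against 0.199, 0.306, 0.288 and 0.168 FPKM in C57 naive and 0.328, 0.379, 0.372 and 0.311 FPKM in DBA naive ganglia. No CAST library came near those of the others, and it was 9.61-fold lower than C57 (adjusted p = 9.1e-08) and 13.9-fold lower than DBA (adjusted p = 4.33e-10). After crush its CAST mean was 0.0425 ± 0.00499 FPKM, against 0.025 ± 0.00309 FPKM in naive ganglia, a ratio of 1.7 that was called on log2(CPM + 0.5) (adjusted p = 0.000981) and not on log2(FPKM + 1) (adjusted p = 0.519). In DBA it fell to 0.216 ± 0.0233 FPKM in injured, against 0.347 ± 0.033 FPKM in naive ganglia (adjusted p = 0.000154), and the CAST minus DBA difference was called on both scales (adjusted p = 0.00419 and 8.72e-05).

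**Figure D5:**
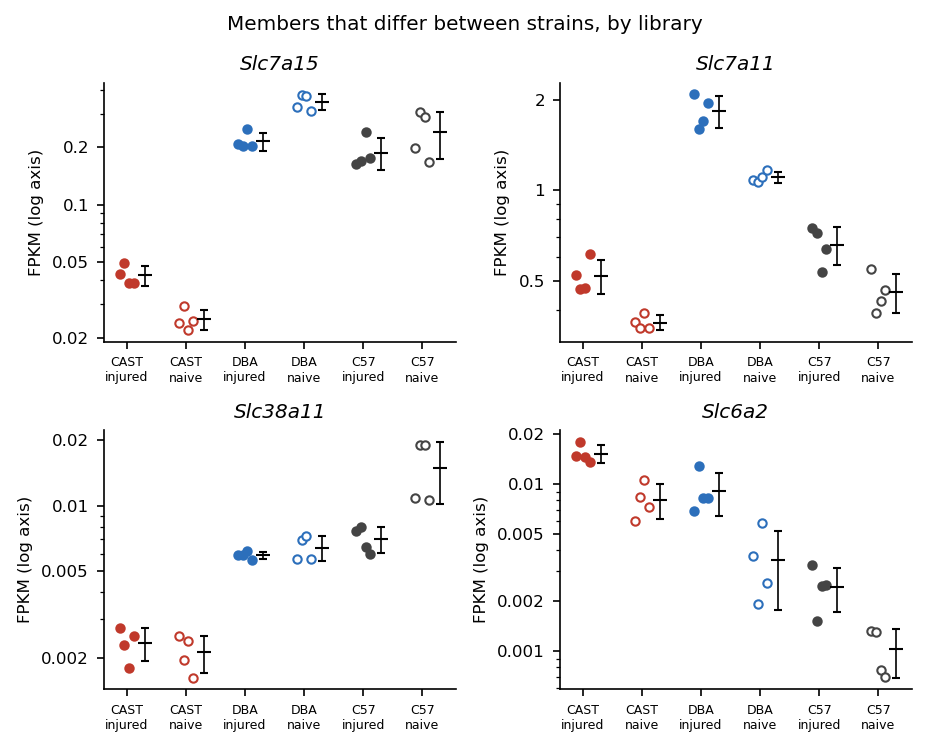
FPKM of Slc7a15, Slc7a11, Slc38a11 and Slc6a2 in every library on log axes, injured (filled) and naive (open) in CAST, DBA and C57. Points are libraries (4 per group) and the bar is the mean with its SD, and CAST lies lowest for Slc7a15 while DBA lies highest for Slc7a11.

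Slc6a19 and Slc7a3 were also lower in CAST naive ganglia. Slc6a19 was 5.9-fold lower than C57 and 6.98-fold lower than DBA (adjusted p = 2.12e-08 and 1.46e-09), and Slc7a3 was 4.51-fold and 2.59-fold lower (adjusted p = 1.25e-10 and 6.92e-06). For Slc7a3 the order CAST, DBA, C57 held with no overlap between neighbours (DBA against C57 adjusted p = 2.92e-06). Slc38a11 was 7.02-fold lower in CAST than in C57 (adjusted p = 3.05e-07), at 8 to 12 estimated reads in CAST and 50 to 88 in C57 naive libraries.

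Slc7a11 was 2.41 times as high in DBA naive as in C57 naive ganglia (adjusted p = 5.04e-08), and CAST was 3.05-fold lower than DBA (adjusted p = 1.68e-09). All 4 DBA naive libraries lay above every naive library of the other strains, and even above the injured ones of CAST and C57. Slc6a2 was 7.91 times as high in CAST as in C57 naive ganglia (adjusted p = 7.96e-05), on 26 to 44 and 3 to 5 estimated reads. Slc7a7 was lower in DBA than in C57 (0.867, adjusted p = 0.00438) and higher in CAST than in DBA (1.16, adjusted p = 0.00157). Its call between DBA and C57 was lost when only the groups compared were fitted (adjusted p = 0.0877).

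Smaller naive differences were called for further genes. Slc7a10 averaged 1.76 ± 0.0481 FPKM in CAST naive and 1.33 ± 0.0968 FPKM in C57 naive ganglia, a ratio of 1.32 (adjusted p = 2.92e-06). Slc3a1 averaged 5.08 ± 0.137 FPKM in CAST naive and 5.83 ± 0.254 FPKM in C57 naive ganglia, a ratio of 0.872 (adjusted p = 0.000221). Slc7a4 was 1.19 times as high in CAST as in DBA (adjusted p = 0.00287). The libraries of these pairs did not overlap, and the shared reads of the partner genes given above apply here too. Slc38a7, a lysosomal glutamine transporter, was 1.23 times as high in CAST as in DBA (adjusted p = 6.74e-07), and 0.84 times in DBA against C57 (adjusted p = 1.42e-05). Slc7a5 was 1.18 times as high in CAST as in C57 (adjusted p = 0.0132), a call lost without CAST naive replicate 4 (adjusted p = 0.0516) and with upper quartile scaling (adjusted p = 0.0576). Slc3a2 was 1.17 times as high in DBA as in C57 (adjusted p = 0.00101). Slc38a2 was 1.12 and 1.14 times as high in CAST and in DBA as in C57 (adjusted p = 0.0301 and 0.0263). The CAST call of Slc38a2 was lost without C57 naive replicate 1 or 4 or CAST naive replicate 1 or 4, and the DBA call without C57 naive replicate 1 or 4 or DBA naive replicate 1, 2 or 3, with adjusted p of 0.0545 to 0.122. Fitted on only the groups compared, neither Slc38a2 call held (adjusted p = 0.132 and 0.164), and the CAST call was also lost with TMM scaling (0.059) and upper quartile scaling (0.188).

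Genes that work beside these transporters were counted from lists chosen with earlier results known, beside 47.2% of all genes called in CAST, 50.2% in DBA and 38.6% in C57. The amino acid stress response, a set of targets and partners of Atf4 that includes synthesis enzymes for asparagine, serine and glycine, had 15 of 18 genes higher and 1 lower in CAST, 14 higher and 1 lower in DBA, and 15 higher and 0 lower in C57. Chac1, which breaks down glutathione, averaged 7.34 ± 0.793 FPKM in CAST injured and 1.56 ± 0.261 FPKM in CAST naive ganglia (SD, n = 4 each), a ratio of 4.70 (adjusted p = 5.17e-11). Sesn2, a leucine sensor and Atf4 target, averaged 1.37 ± 0.103 FPKM in CAST injured and 0.364 ± 0.0161 FPKM in CAST naive ganglia (adjusted p = 6.36e-14). Its ratio was 3.75 in CAST, 2.65 in DBA and 2.66 in C57. The median difference of this list was 0.40 in CAST, 0.29 in DBA and 0.36 in C57 on log2(FPKM + 1), where that of all genes was under 0.01.

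Other lists had calls both ways. Of 17 tested genes of amino acid sensing by mTORC1, 2 rose and 6 fell in CAST, 2 rose and 9 fell in DBA, and 1 rose and 7 fell in C57, and the CAST count lies at the share of all genes called. Slc36a1, a lysosomal proton-coupled amino acid transporter of that list, averaged 1.29 ± 0.0543 FPKM in DBA injured and 2.64 ± 0.0728 FPKM in DBA naive ganglia (adjusted p = 3.98e-11). Of 13 genes of glutathione and cysteine, 5 rose and 4 fell in CAST, 4 and 4 in DBA, and 3 and 4 in C57. Srxn1, which repairs oxidized peroxiredoxins, averaged 50.4 ± 2.51 FPKM in CAST injured and 12.8 ± 0.205 FPKM in CAST naive ganglia, a ratio of 3.94 (adjusted p = 5.38e-17). Of 21 genes of transmitter synthesis and vesicular loading, 2 rose and 6 fell in CAST, 3 and 6 in DBA, and 4 and 6 in C57, which in CAST and DBA is below the share of all genes. Th, the first enzyme of catecholamine synthesis, averaged 0.293 ± 0.0537 FPKM in DBA injured and 1.07 ± 0.0722 FPKM in DBA naive ganglia (adjusted p = 2.94e-10). Slc17a6, a vesicular glutamate transporter, had a ratio of 1.59 in CAST (adjusted p = 2.97e-09). Chac1, Slc36a1, Srxn1, Th and Slc17a6 were chosen for a large change, and values are given only in the strain named for each.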

How the data were processed

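Total RNA was extracted with Trizol and sequenced on an Illumina instrument, per the labels' protocols, and reads were aligned with STAR 2.3.0 to mm10, per the submitters' processing notes. Which counting tool, annotation and strand setting followed is not stated. Per gene and library, the unit the authors deposited is FPKM. The table equalled the 24 sample files, and 0 further per-sample columns were present. Estimated reads were recovered from FPKM and the genomic span of 36345 genes (95.1%) in GENCODE M21. Of values worth 0.5 to 100 reads, 67.7% were whole within 0.05, where chance gives 10.0%, so these reads are estimates. They served the filter, an alternative scale and the depth, which ran from 51.4 to 145.4 in units of 1e6 reads per library (median 107.0). A low read number limits precision for a gene and covers counting error only.

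Differences were fitted with limma 3.58.1 (trend and robust, statmod 1.5.0, R 4.3.3) on log2(FPKM + 1) over all 24 libraries and 27044 genes. Fold changes on this scale understate the change of low genes. The code was tested on simulated data. Tables and figures used python 3.11.15, numpy 2.4.6, pandas 2.3.3 and matplotlib 3.10.9. Values are given for members called after crush with a ratio of at least 1.5 either way, for the 5 largest called differences of response per strain pair, for the 3 highest and 3 lowest called naive differences per pair, and for the member with the highest mean FPKM in each role. Other members are named beside these. The members and gene lists were chosen with earlier results of these data known. Alternatives were the pseudocount, log2(CPM + 0.5), voom, the low-value filter, TMM and upper quartile scaling, fits on the groups compared, a replicate block and leaving out libraries. Further strains were not analysed here. Values of 1 tested member, which is in the counts, are not reported here.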

Additional observations from a re-analysis of the deposited data

Results flagged for a closer look

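In 216 groups of 4 libraries, from 36 genes in 6 groups, 11 had a library far from the other 3, where chance flags about 1 in 20 groups. CAST naive replicate 2 was high for Slc1a2, at 0.0166 FPKM, and for Slc6a11, at 0.0809 FPKM. C57 naive replicate 1 was low for Slc6a17, at 0.738 FPKM beside 0.906 to 0.936, and for Slc7a1, at 0.661 FPKM beside 0.806 to 0.831. DBA naive replicate 4 was low for Slc1a4, at 1.12 FPKM beside 1.15 in the others, and for Slc6a8, at 0.838 FPKM beside 0.948 to 0.966. The remaining libraries were CAST injured replicate 3 for Slc1a6 (0.105 FPKM beside 0.117 to 0.119), C57 injured replicate 2 for Slc38a6 (0.108 beside 0.117 to 0.118) and C57 injured replicate 3 for Slc3a1 (5.21 beside 4.82 to 4.86). CAST injured replicate 2 was high for Slc6a6 (0.870 beside 0.722 to 0.733) and DBA injured replicate 3 for Slc7a15 (0.251 beside 0.203 to 0.208).

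The crush response differed between strains by an interaction test on log2(FPKM + 1). Between CAST and C57 the difference was -0.39 for Slc6a19, -0.29 for Slc1a4, 0.19 for Slc6a6, 0.17 for Slc6a4 and -0.15 for Slc3a1. On log2(CPM + 0.5), Slc6a19 (adjusted p = 0.457), Slc6a4 (0.277) and Slc6a6 (0.0623) were not called between CAST and C57. Between CAST and DBA it was -0.30 for Slc6a19, -0.28 for Slc1a4, -0.27 for Slc7a11, 0.25 for Slc7a5 and 0.20 for Slc7a2, of which Slc6a19 (adjusted p = 0.278) and Slc7a11 (0.421) were not called on log2(CPM + 0.5). Between DBA and C57 it was 0.30 for Slc6a4, 0.24 for Slc7a11, -0.23 for Slc7a5, -0.21 for Slc6a7 and -0.17 for Slc7a7, of which Slc7a11 was not called on log2(CPM + 0.5) (adjusted p = 0.525).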

How the results depend on the processing

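Of the values of named genes under the alternatives, 3282 kept their side of the threshold, 96 kept direction but lost the threshold and 5 turned. The 3282 kept direction where called, and direction was not compared where neither fit was called. Many of these fits left out a library from outside the contrast, which cannot change the difference itself. The 3282 is therefore no measure of stability. With voom, the CAST minus C57 difference was 0.20 for Slc6a19 and -0.47 for Slc6a4, the CAST minus DBA difference was 0.55 for Slc6a19 (adjusted p = 0.0149), and the DBA minus C57 difference was -0.11 for Slc6a4. On log2(CPM + 0.5) the CAST minus DBA difference of Slc6a19 was 0.18. The cause was not tested.

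The count of members whose response differed between CAST and C57 was 7 with a filter of 0.1 FPKM, which tests fewer genes, and between CAST and DBA it was 9 on log2(CPM + 0.5). Between DBA and C57 it was 7 with voom, 6 with the 0.1 FPKM filter and 7 with only the groups compared in the fit. Leaving out 1 library at a time gave 29 to 32 called members after crush in CAST, 32 to 35 in DBA and 27 to 29 in C57. For differences in response it gave 9 to 13 for CAST and C57, 11 to 16 for CAST and DBA and 6 to 12 for DBA and C57. For naive ganglia it gave 22 to 26, 22 to 28 and 12 to 17 for those pairs.

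Correlations of same-numbered deviations ran from -0.247 to 0.233, between injured and naive libraries of a strain and between naive libraries of different strains. Injured libraries of different strains were not compared, so whether replicate numbers pair the libraries is not settled. With a replicate block, 32 members were called after crush in CAST, 34 in DBA and 29 in C57, 12, 15 and 11 differed in response between CAST and C57, CAST and DBA, and DBA and C57, and 24, 25 and 15 differed in naive ganglia. Genes with few reads, such as Slc6a5 and Slc6a12, are limited by depth.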

Other observations

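Endothelial genes rose in 6 of 10 in CAST and 5 of 10 in DBA, and in C57 0 rose and 1 fell, with summed FPKM of 11.8 to 13.6 in CAST injured and 8.71 to 10.7 in CAST naive libraries. Of all genes, 47.2% were called in CAST, 50.2% in DBA and 38.6% in C57. The summed FPKM of the 18 genes of the amino acid stress response was 111 to 122 in CAST injured against 69.0 to 83.8 in CAST naive libraries. It was 113 to 117 in DBA injured against 71.8 to 77.3 in DBA naive, and 109 to 122 in C57 injured against 71.9 to 80.1 in C57 naive libraries. The injured and naive sums did not overlap in any strain.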
